A study of Mus musculus with 14 samples.

Results

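Ms4a1, Cd79a, Cd79b, Cd22, Pax5, Pou2af1, Mzb1, Tnfrsf17 and Derl3, 9 genes that mark B cells and plasma cells, were described across the aorta and liver of BT3xHuBL and HuBL mice. They were chosen by name, with no measured value in the rule but with earlier results of these data known. Each matched 1 of the 24732 features that both deposited count tables list. The study compared 4 groups of libraries from mice kept for 52 weeks on a normal laboratory diet: 3 BT3xHuBL aortas, 3 HuBL aortas, 4 BT3xHuBL livers and 4 HuBL livers. The strain names are not written out in the labels, nor is the age at the start. As background, HuBL stands in this field for mice transgenic for human apolipoprotein B, and BT strains have T cells with a transgenic receptor for that protein. Both genotypes thus share the HuBL background, and mice without it were not analysed here. The libraries came from whole tissue with no cell sorting named. The labels do not say whether the libraries of a group are separate animals, and p-values then reflect only the spread between libraries, which may be technical.

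B cells read antigen through a membrane antibody whose signal is carried into the cell by the CD79a and CD79b chains. The transcription factor PAX5 holds a cell to the B lineage, and the coactivator encoded by Pou2af1 works with octamer-binding factors on antibody gene promoters. When a B cell becomes a plasma cell it loses PAX5 and much of its surface machinery and expands its endoplasmic reticulum, the compartment in which antibody is folded and exported. In arteries B cells are known from the adventitia and the fat around the vessel, and in the liver they belong to the resident and circulating lymphocytes.

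Promoters are printed for 3 of the genes because they show different stages of this path: a coactivator of antibody genes, a chaperone-side gene of the secretory compartment and a chain of the antigen receptor complex. RefSeq promoter windows (GRCm38.p6) were used for 6 of the 9 genes, each with 250 bases before and 50 bases after the annotated start. The remaining genes of the 9 were left out of the motif search, so the motif counts say nothing about them. Capitals mark matches to motifs searched on both strands. The Pou2af1 window, chr9:51213440-51213739 on the plus strand, holds the octamer core TGCAAAT, the letters that octamer factors bind, beginning 231 bases before the start. It also holds TGACGTGG, the unfolded protein response element, beginning 61 bases before the start.
Pou2af1: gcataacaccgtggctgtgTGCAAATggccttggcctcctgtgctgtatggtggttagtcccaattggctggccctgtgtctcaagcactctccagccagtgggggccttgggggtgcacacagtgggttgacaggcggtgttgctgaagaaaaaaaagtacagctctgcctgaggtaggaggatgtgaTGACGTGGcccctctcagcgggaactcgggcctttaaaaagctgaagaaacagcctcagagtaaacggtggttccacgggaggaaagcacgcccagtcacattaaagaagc
The Derl3 window, chr10:75893148-75893447 on the plus strand, holds on its minus strand the endoplasmic reticulum stress response element, which is CCAAT, then 9 free bases, then CCACG, with the fixed letters in capitals. It also holds, on its minus strand, the E-box CAGGTG of E2A.
Derl3: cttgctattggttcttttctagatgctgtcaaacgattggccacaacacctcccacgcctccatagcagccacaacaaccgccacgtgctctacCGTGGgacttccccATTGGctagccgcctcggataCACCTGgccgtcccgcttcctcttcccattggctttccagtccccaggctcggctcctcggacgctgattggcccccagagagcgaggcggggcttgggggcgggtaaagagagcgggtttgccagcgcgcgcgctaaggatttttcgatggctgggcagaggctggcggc
The Cd79a window, chr7:24897247-24897546 on the plus strand, holds the E-box CAGGTG beginning 154 bases before the start.
Cd79a: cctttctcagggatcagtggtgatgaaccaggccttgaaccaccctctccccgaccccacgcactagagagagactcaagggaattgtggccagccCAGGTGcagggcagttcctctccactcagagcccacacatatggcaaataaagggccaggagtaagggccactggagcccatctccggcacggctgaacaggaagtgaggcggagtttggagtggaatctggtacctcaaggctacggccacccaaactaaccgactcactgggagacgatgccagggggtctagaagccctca
Over 32851 promoter windows of the same length, the octamer core was found in 4.02%, the unfolded protein response element in 0.676%, the stress response element in 0.119% and the E-box in 20.2%. Of the other windows, that of Cd22 held the E-box and CCCNNGGG, a pair of half-sites of EBF present in 13.7% of windows. Neither Pax5 nor Tnfrsf17 held any of the 6 motifs searched, and GAGGAAGT of PU.1, found in 3.20% of windows, was in none of the 6. The matches do not overlap each other and describe letters only.

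Totals ran from 41933263 to 65539765 counts per aorta library and from 13228123 to 17992459 counts per liver library. Levels are given as CPM, counts relative to a fixed library total, from counts and scaled library totals within a tissue, and 3 counts corresponded to 0.0458 to 0.0715 CPM in the aorta and to 0.167 to 0.227 CPM in the liver. The T cell receptor segment Trav14-1, chosen after its values were seen, had counts in 5 of 7 BT3xHuBL libraries and in none of the 7 HuBL libraries. BT3xHuBL aorta library 3 had 0 counts of it, against 4 and 52 in BT3xHuBL aorta libraries 1 and 2. BT3xHuBL liver library 3 also had 0 counts, against only 1, 1 and 2 in BT3xHuBL liver libraries 1, 2 and 4. The labels name no receptor segment, so this does not settle the genotype of either library. Aorta differences are also given without BT3xHuBL aorta library 3. In GENCODE M21 (GRCm38) all 9 genes are protein-coding. An antisense gene, 4930526L06Rik, spans all of Ms4a1, and it had 0 counts in every library. Spata24 covers Mzb1 on the same strand and was counted as its own feature, with 139 to 218 counts in aorta libraries and 19 to 69 in liver libraries, so the level of Mzb1 is uncertain, and how many reads the 2 features share was not measured. Antisense genes also overlap parts of Cd22 and Pax5, an intronic one lies in Pou2af1, and the sources used here do not give the strand setting of the counting.

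In the aorta all 9 genes had a lower mean in BT3xHuBL than in HuBL libraries, where 51.5% of all genes tested had a log2 fold change below 0. The differences were largest for Pou2af1, the octamer coactivator, at 4.55-fold lower, for Ms4a1, the gene of the B cell surface protein CD20, at 3.45-fold lower, and for Mzb1, an endoplasmic reticulum protein of antibody-making cells, at 3.21-fold lower. Cd22, an inhibitory coreceptor, differed least, at 1.12-fold lower. With edgeR's quasi-likelihood test and Benjamini-Hochberg adjustment over 15400 genes, 0 of the 9 passed the threshold of 0.05, where 0.026% of all genes (4) passed. At an unadjusted p under 0.05, 6 of the 9 were lower in BT3xHuBL, against 1.96% of all genes in that direction. DESeq2 called 4 of the 9, all lower (0.442% of all genes), and limma-voom called 0 (0.0% of all genes). Without the filter on low counts edgeR called 1 of the 9, Pou2af1 (adjusted p = 0.0191), where 0.0473% of all genes passed. The median log2 fold change of the 9 genes was -1.25, against -0.0044 over all genes tested. These are whole-tissue RNA values, in which fewer B lineage cells and less RNA per cell cannot be told apart.

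**Figure D1:**
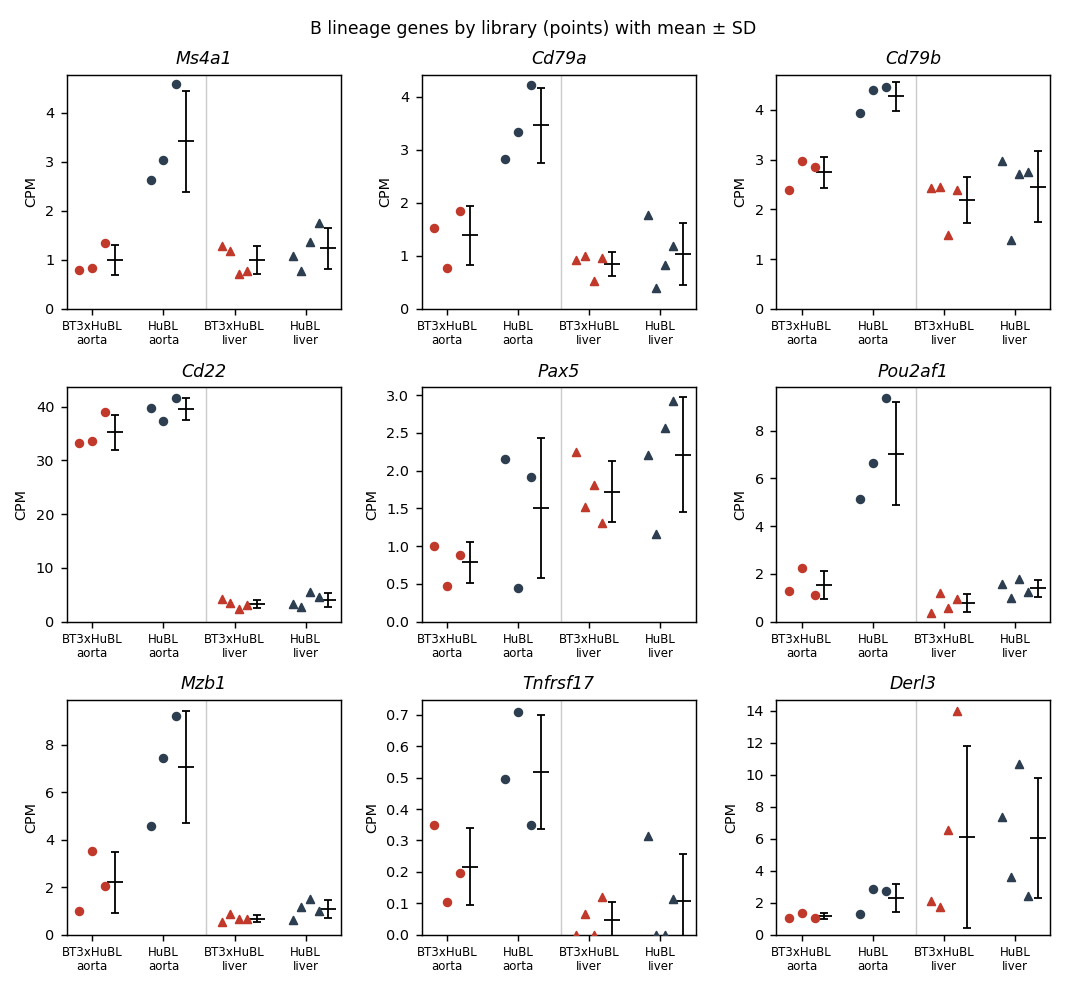
CPM of each of the 9 genes in every library, with 1 panel per gene: red for BT3xHuBL, dark for HuBL, circles for aorta and triangles for liver, and the mean ± SD beside each group. Vertical axes start at 0 and differ between panels, and CPM were scaled within a tissue, so heights are compared between genotypes of a tissue. In the aorta Ms4a1, Cd79a, Cd79b, Pou2af1 and Mzb1 are lower in all 3 BT3xHuBL libraries than in any HuBL library, while in the liver the groups overlap.

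Among genes of the antigen receptor complex and the B cell surface, Cd79a, on chromosome 7 from 24897381 to 24902197, had 1.52, 0.778 and 1.85 CPM in BT3xHuBL aortas 1, 2 and 3, against 2.82, 3.33 and 4.22 CPM in HuBL aortas 1, 2 and 3. Its groups did not overlap, and the log2 fold change was -1.32 (SE 0.33, adjusted p = 0.706). Cd79b, its partner chain, on chromosome 11 from 106311341 to 106314762, had 2.39, 2.98 and 2.86 CPM in BT3xHuBL aortas, against 3.94, 4.40 and 4.46 CPM in HuBL aortas. The HuBL libraries all lay above the BT3xHuBL ones with little spread inside each group, and the log2 fold change was -0.64 (SE 0.20, adjusted p = 0.901). The pair thus had the same direction, with a point estimate for Cd79a below that for Cd79b, and the difference between the 2 estimates was not tested.

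Ms4a1, on chromosome 19 from 11249675 to 11266241, had 0.786, 0.838 and 1.35 CPM in BT3xHuBL aortas, against 2.64, 3.03 and 4.59 CPM in HuBL aortas. The groups were apart, HuBL aorta 3 was the highest, and these values rest on 45 to 83 counts in BT3xHuBL libraries and 124 to 290 in HuBL libraries. The log2 fold change was -1.79 (SE 0.32, adjusted p = 0.246), the 13th smallest p of all genes tested. Cd22, on chromosome 7 from 30865402 to 30880342, encodes a sialic acid-binding coreceptor that damps receptor signalling in B cells. It had 33.2, 33.6 and 39.0 CPM in BT3xHuBL aortas, against 39.7, 37.4 and 41.5 CPM in HuBL aortas. These groups overlapped through BT3xHuBL aorta 3, and the log2 fold change was -0.16 (SE 0.09, 95% interval -0.37 to 0.04). Cd22 was counted 1529 to 2627 times per aorta library, where the other 8 genes had 7 to 592 counts, so its difference is the most narrowly bounded of the 9.

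The 2 transcription regulators differed in how far their libraries spread. Pou2af1, on chromosome 9 from 51213708 to 51240080, whose promoter with the octamer core is printed above, had 1.27, 2.23 and 1.12 CPM in BT3xHuBL aortas, against 5.14, 6.63 and 9.36 CPM in HuBL aortas. The lowest HuBL library was above the highest BT3xHuBL library by more than the whole BT3xHuBL range. Its log2 fold change of -2.19 (SE 0.31, adjusted p = 0.0881) had the 7th smallest p of the 15400 genes. Pax5, on chromosome 4 from 44524757 to 44710487, had 0.995, 0.479 and 0.877 CPM in BT3xHuBL aortas, against 2.16, 0.440 and 1.91 CPM in HuBL aortas. HuBL aorta 2 was the lowest of all 6 libraries, with 18 counts, so the groups overlapped, and the log2 fold change of -0.95 had an SE of 0.55.

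Of the genes of plasma cells and antibody export, Mzb1, on chromosome 18 from 35647267 to 35649367, had 0.995, 3.53 and 2.06 CPM in BT3xHuBL aortas, against 4.56, 7.43 and 9.23 CPM in HuBL aortas. The groups did not overlap although both were spread widely, and the log2 fold change was -1.68 (SE 0.47, adjusted p = 0.901). Derl3, on chromosome 10 from 75893413 to 75895941, encodes a derlin that helps pull misfolded proteins out of the endoplasmic reticulum, and its promoter with the stress response element is printed above. It had 1.03, 1.38 and 1.04 CPM in BT3xHuBL aortas, against 1.30, 2.86 and 2.72 CPM in HuBL aortas. BT3xHuBL aorta 2 lay just above HuBL aorta 1, and the log2 fold change was -0.99 (SE 0.35). Tnfrsf17, on chromosome 16 from 11313812 to 11320074, encodes BCMA, the receptor through which plasma cells receive the survival factors APRIL and BAFF. Its 7 to 20 counts in BT3xHuBL libraries and 22 to 32 counts in HuBL libraries gave 0.349, 0.105 and 0.195 CPM in BT3xHuBL aortas, against 0.497, 0.709 and 0.348 CPM in HuBL aortas. BT3xHuBL aorta 1 and HuBL aorta 3 were level, and the log2 fold change was -1.25 (SE 0.64).

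In all, 5 of the 9 genes had every BT3xHuBL aorta library below every HuBL one, which held for 4.9% of all genes tested. Among these 5 genes the Pearson r of log2 CPM over the 6 aorta libraries ran from 0.62 (Cd79a and Mzb1) to 0.96 (Cd79b and Mzb1). The 5 were picked by their split between the genotypes, which by itself raises r over libraries of both. Whether they vary together within a genotype was not tested, so the 5 are not counted as independent of each other. HuBL aorta 3 had the highest level of 6 of the 9 genes and BT3xHuBL aorta 1 the lowest of 5. Without BT3xHuBL aorta 3, the log2 fold changes were -2.07 for Ms4a1, -1.59 for Cd79a, -0.67 for Cd79b, -0.24 for Cd22, -1.05 for Pax5, -2.002 for Pou2af1, -1.64 for Mzb1, -1.19 for Tnfrsf17 and -0.92 for Derl3. None of the 9 passed in that fit, with adjusted p = 0.0588 for Ms4a1 and 0.0726 for Pou2af1, while 27 genes of the whole table (0.172%) did. Without BT3xHuBL aorta 2, Pou2af1 passed (log2 fold change -2.55, adjusted p = 0.0374), where 0.0321% of all genes did.

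**Figure D2:**
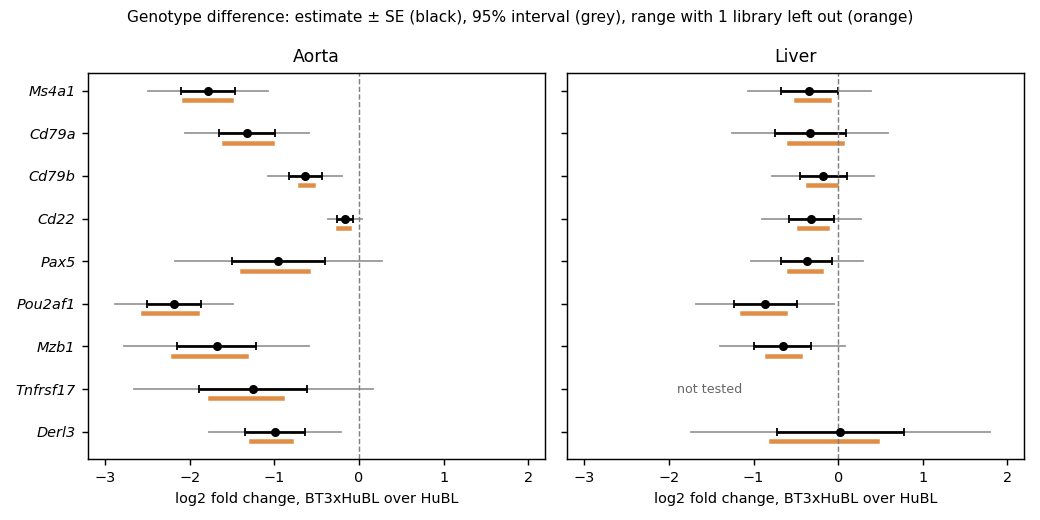
Log2 fold change of BT3xHuBL over HuBL for each gene in the aorta (left) and the liver (right), with the estimate ± SE in black, its 95% interval in grey and, in orange, the range of the estimate as each library of that tissue was left out in turn. Aorta estimates lie between -2.19 and -0.16 with every orange bar below 0, and liver estimates lie between -0.86 and 0.03 with intervals that cross 0 for all but Pou2af1.

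In the liver, point estimates lay nearer to 0 than in the aorta for 7 of the 8 genes with enough counts to be tested, and Cd22, at -0.32 in the liver and -0.16 in the aorta, was the exception. Of these 8 genes, 7 had a log2 fold change below 0, as did 48.2% of all 12453 genes tested, and their median was -0.33 against 0.0092 over all genes. In edgeR 0 of the 8 passed, where 0.0% of all genes passed, and 1 of the 8 was lower at an unadjusted p under 0.05, against 5.38% of all genes. DESeq2 (1.07% of all genes) and limma-voom (0.0%) each called 0 of the 8. The genotypes overlapped for each of the 8, and every BT3xHuBL liver lay below every HuBL liver for 3.58% of all genes. The 8 genes had 5 to 235 counts per liver library, and the intervals are wide.

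Ms4a1 had 1.27, 1.19, 0.7095 and 0.773 CPM in BT3xHuBL livers 1 to 4, against 1.07, 0.772, 1.35 and 1.74 CPM in HuBL livers 1 to 4. The groups were interleaved, with a log2 fold change of -0.34 (SE 0.33). Cd79a had 0.911, 0.992, 0.516 and 0.952 CPM in BT3xHuBL livers, against 1.77, 0.386, 0.828 and 1.18 CPM in HuBL livers, and its estimate of -0.33 (SE 0.42) turned to 0.04 without HuBL liver 1. Cd79b had 2.43, 2.45, 1.48 and 2.38 CPM in BT3xHuBL livers, against 2.97, 1.39, 2.71 and 2.76 CPM in HuBL livers. One library of each genotype, BT3xHuBL liver 3 and HuBL liver 2, lay well below its group, and the log2 fold change was -0.18 (SE 0.27). Cd22 had 4.19, 3.44, 2.32 and 3.03 CPM in BT3xHuBL livers, against 3.22, 2.70, 5.57 and 4.67 CPM in HuBL livers, a log2 fold change of -0.32 (SE 0.26).

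Pou2af1 had the lowest liver estimate, as it had in the aorta. It had 0.364, 1.19, 0.581 and 0.952 CPM in BT3xHuBL livers, against 1.58, 1.00, 1.81 and 1.24 CPM in HuBL livers. Only BT3xHuBL liver 2 reached into the HuBL range, and the log2 fold change was -0.86 (SE 0.37, unadjusted p = 0.0399, adjusted p = 0.426). Mzb1 had 0.546, 0.859, 0.645 and 0.654 CPM in BT3xHuBL livers, against 0.631, 1.16, 1.51 and 1.01 CPM in HuBL livers, a log2 fold change of -0.65 (SE 0.34, adjusted p = 0.482) from 9 to 20 counts per library. Pax5 had 2.25, 1.52, 1.81 and 1.31 CPM in BT3xHuBL livers, against 2.21, 1.16, 2.56 and 2.93 CPM in HuBL livers, a log2 fold change of -0.37 (SE 0.30). Derl3 varied widely between livers of 1 genotype. It had 2.12, 1.72, 6.51 and 13.98 CPM in BT3xHuBL livers, against 7.38, 3.63, 10.7 and 2.42 CPM in HuBL livers, so each group held both low and high livers and the log2 fold change was 0.03 (SE 0.76). Over the 8 livers the log2 CPM of Derl3 correlated with each other gene of the 9 at a Pearson r of -0.44 (Ms4a1) to 0.32 (Pou2af1). Which liver cells carry the RNA of Derl3 was not tested. Tnfrsf17 was too scarce to test, with 0, 1, 0 and 2 counts in BT3xHuBL livers and 5, 0, 0 and 2 counts in HuBL livers, at or near the floor of 3 counts.

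Whether the genotype difference itself differed between tissues was tested as an interaction in 1 fit of all 14 libraries. None of the 8 genes tested passed in edgeR, nor did any of the 11951 genes (0.0%), and 2 of the 8 were below 0 at an unadjusted p under 0.05, against 4.13% of all genes. The 2 were Ms4a1, whose log2 fold change in the aorta lay 1.43 below that in the liver (interaction -1.43, SE 0.47, adjusted p = 0.456), and Pou2af1 (-1.31, SE 0.52, adjusted p = 0.532). For Cd79a, Mzb1, Derl3, Pax5 and Cd79b the interaction was -0.98, -1.02, -1.01, -0.58 and -0.45, and for Cd22 it was 0.16. DESeq2 gave none of the 8 an adjusted p, and limma-voom called 0. The larger differences in the aorta are therefore not shown to exceed those in the liver.

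Levels in the aorta were then set against those in the liver within each genotype. The RNA of each tissue came as its own table with its own series of libraries, so tissue and library series cannot be told apart. In both genotypes Cd22 and Mzb1 were higher in the aorta, and Pax5 and Derl3 were lower. In HuBL mice, 6 of the 8 genes tested passed edgeR's test, 4 higher and 2 lower, where 83.0% of the 14912 genes tested passed, 44.0% higher and 39.0% lower. In BT3xHuBL mice 4 of the 8 passed, 2 higher and 2 lower, where 83.1% of all genes passed, 43.3% higher and 39.8% lower. Passing in these contrasts is therefore common among genes in general.

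Cd22 was the clearest of the aorta-high genes. On a common CPM scale over both tissues it averaged 26.2 ± 2.504 CPM in BT3xHuBL aortas (SD, n = 3), against 4.06 ± 0.945 CPM in BT3xHuBL livers (SD, n = 4). In HuBL mice it averaged 29.1 ± 1.73 CPM in aortas against 5.06 ± 1.62 CPM in livers. The log2 fold changes of aorta over liver were 2.68 (SE 0.20, adjusted p = 3.76e-09) in BT3xHuBL and 2.52 (SE 0.19, adjusted p = 6.63e-09) in HuBL mice. Mzb1 averaged 1.63 ± 0.941 CPM in BT3xHuBL aortas against 0.848 ± 0.165 CPM in BT3xHuBL livers, a log2 fold change of 0.95 (SE 0.42, adjusted p = 0.049), which was 0.43 without BT3xHuBL aorta 2 (adjusted p = 0.338). That call was also lost with limma-voom (adjusted p = 0.281), and with any of the other libraries left out except BT3xHuBL aorta 1, HuBL aorta 1 and HuBL liver 1 (0.0501 to 0.0894). In HuBL mice Mzb1 averaged 5.21 ± 1.75 CPM in aortas against 1.35 ± 0.444 CPM in livers (log2 fold change 1.96, SE 0.40, adjusted p = 0.00029).

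Pou2af1 and Cd79a passed in HuBL mice and not in BT3xHuBL mice. Pou2af1 averaged 1.14 ± 0.442 CPM in BT3xHuBL aortas against 0.969 ± 0.465 CPM in BT3xHuBL livers (log2 fold change 0.25, SE 0.38). It averaged 5.19 ± 1.6003 CPM in HuBL aortas against 1.76 ± 0.441 CPM in HuBL livers (1.56, SE 0.35, adjusted p = 0.000743). For Cd79a the log2 fold change was -0.04 (SE 0.42) in BT3xHuBL and 0.94 (SE 0.40, adjusted p = 0.0424) in HuBL mice, and the HuBL call was lost without HuBL aorta 2 or 3 or HuBL liver 2, 3 or 4 (adjusted p 0.0594 to 0.141). The difference between the genotypes in these tissue contrasts is the interaction given above, which neither gene passed. Ms4a1 was at -0.75 (SE 0.35, adjusted p = 0.0612) in BT3xHuBL and 0.69 (SE 0.33, adjusted p = 0.067) in HuBL mice, and Cd79b at -0.43 (SE 0.25) in BT3xHuBL and 0.02 (SE 0.25) in HuBL mice. Ms4a1 passed in BT3xHuBL mice without BT3xHuBL aorta 3 (-1.03, adjusted p = 0.0229) or BT3xHuBL liver 3 (-0.87, adjusted p = 0.0441), and in HuBL mice without HuBL aorta 1 (0.85, adjusted p = 0.0474) or HuBL liver 4 (0.91, adjusted p = 0.0304) and with upper quartile scaling (0.88, adjusted p = 0.0235). Cd79b passed in BT3xHuBL mice without BT3xHuBL liver 3 (-0.57, adjusted p = 0.0472).

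Pax5 and Derl3 were the liver-high genes. Pax5 averaged 0.582 ± 0.201 CPM in BT3xHuBL aortas against 2.15 ± 0.490 CPM in BT3xHuBL livers, a log2 fold change of -1.89 (SE 0.48, adjusted p = 0.00206). In HuBL mice its log2 fold change was -1.31 (SE 0.46, adjusted p = 0.0162). Derl3 averaged 0.852 ± 0.144 CPM in BT3xHuBL aortas against 7.68 ± 7.24 CPM in BT3xHuBL livers (log2 fold change -3.17, SE 0.72, adjusted p = 0.00105), and the estimate was -2.34 without BT3xHuBL liver 4, with an adjusted p of at most 0.00649 in edgeR whichever library was left out. In HuBL mice it averaged 1.69 ± 0.631 CPM in aortas against 7.55 ± 4.67 CPM in livers (-2.16, SE 0.68, adjusted p = 0.00987). The median of all genes was 0.07 in BT3xHuBL and 0.10 in HuBL mice, and with unscaled library totals it was 0.82 and 0.88. On unscaled totals the calls of Pax5 (adjusted p = 0.291) and Derl3 (0.0572) were lost in HuBL mice, Pou2af1 passed in BT3xHuBL mice (0.0208), Ms4a1 (0.000985) and Cd79b (0.00791) passed in HuBL mice, and the BT3xHuBL estimates of Cd79a and Cd79b turned to 0.70 and 0.32.

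**Figure D3:**
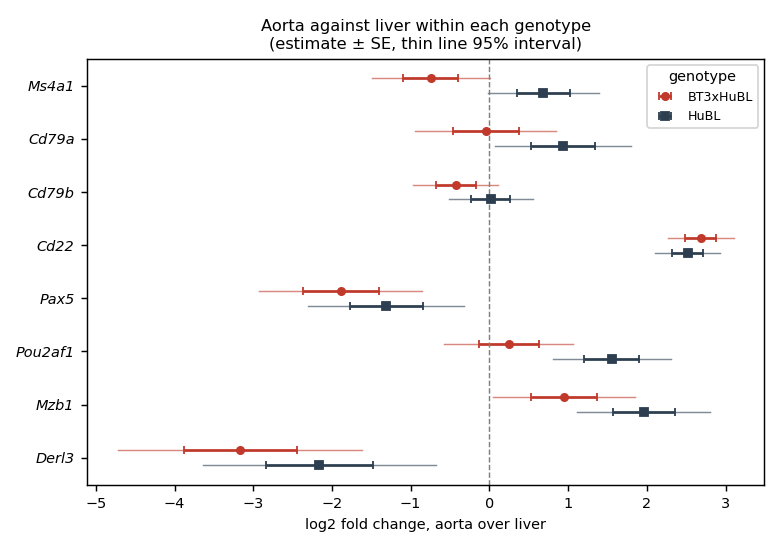
Log2 fold change of aorta over liver for the 8 genes tested, in BT3xHuBL (red circles, upper) and HuBL mice (dark squares, lower), with the estimate ± SE and a thin line for the 95% interval. Cd22 lies at 2.68 and 2.52 and Derl3 at -3.17 and -2.16, while Ms4a1 lies on either side of 0 in the 2 genotypes.

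Neighbours of these genes in their pathways were listed from textbook knowledge and read in the same fits. In the aorta, 14 of 16 other B cell surface and trafficking genes lay below 0 (median -0.30), and 17 of 20 genes of plasma cell differentiation and secretion (median -0.09). The split was 11 of 18 for receptor signalling genes and coreceptors (median -0.05), 6 of 12 for B lineage transcription factors (median 0.01) and 6 of 8 for the BAFF and APRIL pathway (median -0.09). Of the 5 immunoglobulin constant genes matched, 4 were tested, 3 of them below 0 (median -0.47). In these 6 lists, with 78 genes tested, edgeR called 0, 7 were lower and 1 higher at an unadjusted p under 0.05, DESeq2 called 2 (Igkc and Jchain) and limma-voom 0. Over all genes in the aorta 51.5% lay below 0, 1.96% were lower at an unadjusted p under 0.05 and DESeq2 called 0.442%. In the liver 9 of 10 other surface genes lay below 0 (median -0.31), 14 of 17 signalling genes (median -0.20), 10 of 11 transcription factors (median -0.14), 11 of 19 plasma cell genes (median -0.09), 4 of 5 BAFF and APRIL genes (median -0.08) and 3 of 3 constant genes (median -0.49). Of those 65 genes edgeR, DESeq2 and limma-voom called 0, and in edgeR 3 were lower and 2 higher at an unadjusted p under 0.05. Over all genes in the liver 48.2% lay below 0 and 5.38% were lower at an unadjusted p under 0.05, so the 3 of 65 do not stand above that share.

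Igkc, the constant region of the kappa light chain, had 53.8, 160.1 and 77.4 CPM in BT3xHuBL aortas, against 291.3, 596.8 and 458.8 CPM in HuBL aortas (log2 fold change -2.21, SE 0.55). Jchain, which joins antibodies into polymers and was counted under its older name Igj, had 29.7, 76.4 and 61.4 CPM in BT3xHuBL aortas, against 127.3, 192.9 and 207.3 CPM in HuBL aortas (-1.65, SE 0.43). For both genes of antibody output, the groups did not overlap. Iglc1, a lambda light chain constant gene, lay the other way at 1.82 (SE 1.04). Bcl11a, a regulator of lymphoid development, gave -0.86 (SE 0.39). H2-Ob, which tunes antigen loading in B cells, gave -0.79 (SE 0.26). Pou2f2, the octamer factor that works with the Pou2af1 product, gave 0.35 (SE 0.15), Ebf1, an early B lineage factor, 0.14 (SE 0.18), and Xbp1, a driver of secretory expansion, 0.01 (SE 0.08). Xbp1 and Ebf1 are also expressed by many other cells. In the liver Igkc gave -0.53 (SE 0.23), Bank1, a scaffold of receptor signalling, -0.58 (SE 0.24), Syk, a kinase of receptor signalling, -0.36 (SE 0.15) and Jchain -0.35 (SE 0.25). Above 0 in the liver lay Pik3ap1, an adaptor between the antigen receptor and PI3-kinase, at 0.50 (SE 0.18, the smallest p of the signalling list), Ralgps2 at 0.23 (SE 0.10) and Xbp1 at 0.21 (SE 0.12).

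Libraries within a genotype differed in which of the genes were low. HuBL aorta 2 was lowest of its group for Pax5 (0.440 CPM) and Cd22 (37.4 CPM). It was the highest of all for Igkc (596.8 CPM), Tnfrsf17 (0.709 CPM) and Derl3 (2.86 CPM). BT3xHuBL aorta 2 was lowest of its group for Cd79a, Pax5 and Tnfrsf17 and highest for Cd79b, Mzb1, Pou2af1, Derl3, Igkc and Jchain. BT3xHuBL aorta 1 had the lowest Mzb1, Igkc and Jchain of the 6 libraries. These orders are descriptions of single libraries.

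**Figure D4:**
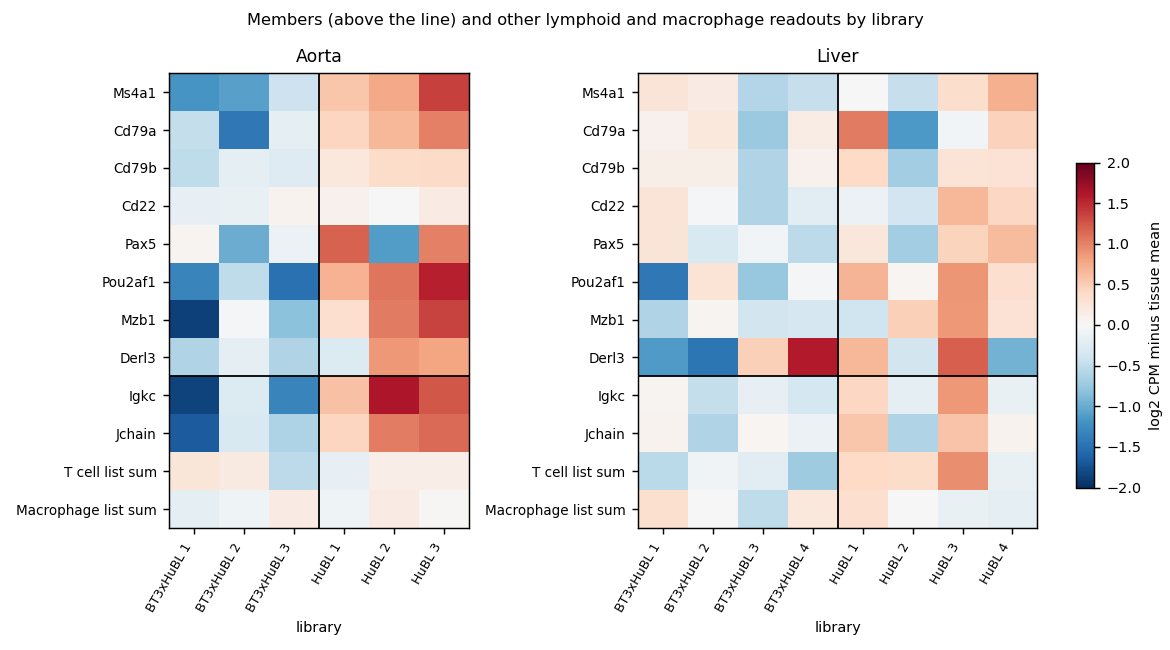
Log2 CPM of each gene in each library minus the mean over the libraries of that tissue, for the genes above the line and, below it, Igkc, Jchain and the summed CPM of the T cell and macrophage lists; red is above and blue below the mean, and Tnfrsf17 is left out because it had counts of 0 in the liver. In the aorta most B lineage rows are blue in BT3xHuBL and red in HuBL libraries, with Pax5 in HuBL aorta 2 as an exception, and the T cell and macrophage sums show no such split.

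Markers of other cells were read beside these values. In the aorta 6 of 12 T cell genes lay below 0 (median -0.01), with a summed level of 24.2 to 41.2 CPM in BT3xHuBL and 30.9 to 38.2 CPM in HuBL aortas, and 4 of 11 macrophage genes did (median 0.03). Plasmacytoid dendritic cells also express several of the 9 genes, and 4 of their 8 markers tested in the aorta lay below 0 (median -0.07, sum 219.9 to 244.7 CPM in BT3xHuBL and 210.9 to 246.5 CPM in HuBL aortas). Tcf4 and Bst2, with means of 129.6 and 84.3 CPM over the aortas, made up most of that sum. It is therefore not a readout of these cells alone. In the liver all 10 T cell genes tested lay below 0 (median -0.86), with sums of 11.4 to 17.6 CPM in BT3xHuBL and 16.8 to 35.2 CPM in HuBL livers. All 5 plasmacytoid dendritic cell markers tested in the liver did as well (median -0.42, sums of 465.2 to 531.1 CPM in BT3xHuBL and 677.7 to 792.6 CPM in HuBL livers), led by Bst2, which many cell types express. The part of T cells and plasmacytoid dendritic cells in the liver values of the 9 genes was not tested. Of 49 genes tested in the 9 lists of other cells in the liver, edgeR and limma-voom called 0 and DESeq2 2 (Cd4 and Bst2), and in edgeR 13 were lower and 3 higher at an unadjusted p under 0.05, where 5.38% of all genes were lower and DESeq2 called 1.07%.

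Fat and vessel-associated cells were read in the same way. All 6 adipocyte genes lay above 0 in the aorta (median 0.50), with sums of 115.7 to 213.4 CPM in BT3xHuBL and 84.8 to 137.0 CPM in HuBL aortas. Natural killer cell genes lay above 0 for 5 of 6 (median 0.67), lymphatic endothelial genes for 4 of 5 (median 0.37), smooth muscle genes for 3 of 5 (median 0.06), hepatocyte genes for 2 of 3 (median 0.38) and lymph node stroma genes for 2 of 7 (median -0.08). The hepatocyte sums, over all 8 listed genes, were 41.1 to 68.4 CPM in BT3xHuBL and 22.5 to 37.0 CPM in HuBL aortas and did not overlap. Cyp2e1 made up most of that sum, with means of 49.0 CPM in BT3xHuBL and 21.9 CPM in HuBL aortas. The defining hepatocyte gene Alb was near 0 and lay the other way, at 0.0553 CPM in BT3xHuBL and 0.265 CPM in HuBL aortas, as did Apoa1 (0.00542 CPM in BT3xHuBL, 0.0496 CPM in HuBL) and Apoa2 (0.290 CPM in BT3xHuBL, 0.462 CPM in HuBL). Over the 63 genes tested in the 9 lists in the aorta, edgeR and limma-voom called 0 and DESeq2 1 (Mfge8). Over all genes DESeq2 called 0.442%. In edgeR 1 of the 63 was lower and 7 were higher at an unadjusted p under 0.05. Of all 15400 genes tested, 629 had such a p in either direction, and 302 of these (1.96% of all genes) were lower. In the liver, genes lay below 0 for 6 of 11 of macrophages (median -0.06), 1 of 4 of lymph node stroma (median 0.16), 1 of 4 of lymphatic endothelium (median 0.28), 4 of 8 of hepatocytes (median 0.0020), 3 of 4 of smooth muscle (median -0.73), 0 of 2 of adipocytes (median 0.27) and 1 of 1 of natural killer cells (-0.76). The part of these cells in the values of the 9 genes was not tested.

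The genes whose log2 CPM followed the mean of the 9 most closely, with no test, were Clock, Umps, Igkv10-96, Melk and Spry1 over the 6 aorta libraries (Pearson r 0.99, 0.99, 0.98, 0.97 and 0.97, among 12685 genes). Over the 8 liver libraries they were Fam104a, Gimap1, Yipf4, Rilpl2 and Isca1 (r 0.95, 0.95, 0.93, 0.93 and 0.93, among 11320 genes). With so few libraries, and with both genotypes among them, high values of r are frequent among that many genes.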

How the data were processed

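The data are 14 RNA-seq libraries of aorta and liver, grouped by the genotype and tissue in the labels. The labels' protocols name a Qiagen RNeasy kit for isolation and Lexogen QuantSeq V2 for the libraries, a kit that reads transcript 3′ ends, so counts carry no correction for gene length. The authors deposited unnormalized counts per feature, in 1 table per tissue. Per the submitters' processing notes, HTSeq 2.0 and GRCm38 were used. For the aligner, strand setting and annotation, the sources used here state nothing. The tables' own coordinates differ from GENCODE M21 for most of the 9 genes, so positions come from GENCODE M21 by symbol.

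Genes were filtered by filterByExpr and scaled by TMM within a tissue, and BT3xHuBL was tested against HuBL by edgeR's robust quasi-likelihood F-test (edgeR 4.0.16, R 4.3.3), two-sided, at a Benjamini-Hochberg adjusted threshold of 0.05. Tissue contrasts and the interaction used all 14 libraries. Log2 fold changes carry a prior count of 0.125, and CPM were computed from the deposited counts and TMM-scaled totals. DESeq2 1.42.0, limma-voom (limma 3.58.1), other scalings and filters, a replicate block and each library left out were alternatives. The 9 genes, the pathway lists and the tests were chosen with earlier results of these data known. Named genes are the 9, fixed partners, and up to 3 genes per list and tissue of smallest p with a mean of at least 1 CPM; 1 gene that this rule names is not reported here. Libraries of a group all differed beyond counting noise (chi-square over its degrees of freedom at least 12.2). Replicate numbers did not pair the libraries: deviations of same-numbered libraries correlated at -0.055 to 0.105 in the aorta and -0.045 to 0.179 in the liver.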

Additional observations from a re-analysis of the deposited data

Results flagged for a closer look

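Within groups of 4 livers, 3 single values of the 9 genes lay far from the rest of their group by Dixon's test of the gap over the range. Cd79b was at 1.48 CPM in BT3xHuBL liver 3 and at 1.39 CPM in HuBL liver 2. Cd79a was at 0.516 CPM in BT3xHuBL liver 3. Of 18 groups examined, chance flags about 1 in 20.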

How the results depend on the processing

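All log2 fold changes of the 9 genes in the aorta stayed below 0 under the alternatives run, leave-one-out included. The count of the 9 called in the aorta was 0 as reported, 4 with DESeq2 (Ms4a1, Cd79a, Pou2af1 and Mzb1, adjusted p 0.000167, 0.0383, 6.75e-09 and 0.00438), 1 without the low-count filter (Pou2af1, 0.0191) and 0 to 1 with a library left out. All aorta genes called numbered 4 as reported, 68 with DESeq2, 0 with limma-voom, 9 without the filter and 0 to 27 with a library left out, 27 without BT3xHuBL 3, 2 without HuBL 1 and 0 without HuBL 2 or 3. In the liver they numbered 0 as reported, 133 with DESeq2, 5 in the fit of both tissues and 0 to 5 with a library left out, and in the interaction 0 as reported, 42 with DESeq2 and 0 to 4. Tissue counts of called genes and of the 9 stayed within 1.5 times. With the replicate number as a block, although no pairing by it was seen, 14 aorta, 10 liver and 3 interaction genes were called. None of the 9 genes was called in those fits, and liver Derl3 was -0.25. No block could be fitted to the tissue contrasts.

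Directions turned as follows, and the cause was not tested. Liver Derl3 was -0.20 with limma-voom, -0.00258 without BT3xHuBL liver 3, -0.80 without BT3xHuBL liver 4, -0.15 without HuBL liver 2 and -0.24 without HuBL liver 4, and over all livers left out it ran from -0.80 to 0.45. Liver Cd79a ran from -0.58 to 0.0428, the last without HuBL liver 1. The interaction of Cd22 ran from -0.0104, without HuBL liver 3, to 0.31. In aorta against liver, HuBL Cd79b was -0.02 without HuBL aorta 3 and -0.17 without HuBL liver 2. BT3xHuBL Cd79a was 0.70 on unscaled totals, chosen after seeing the data, 0.13 with upper quartile scaling, 0.25 without BT3xHuBL aorta 2, and 0.04, 0.04 and 0.03 without BT3xHuBL livers 1, 2 and 4, with a lowest value of -0.31. BT3xHuBL Cd79b was 0.32 on unscaled totals and BT3xHuBL Pou2af1 ran from -0.12, without BT3xHuBL aorta 2, to 0.52. Depth limits Tnfrsf17 throughout and Mzb1, Cd79a and Pou2af1 in the liver, where counts were below 30 per library.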
